A study of Mus musculus with 15 samples.

Results

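The genes described here encode proteoglycan core proteins, the enzymes that build and sulfate their sugar chains, the enzymes that make hyaluronan and the proteins that link it to the matrix. They were chosen by name, from a list of 48 genes, and a deposited array entry was taken as a member when its gene symbol, in the platform annotation or at the end of its description, was on that list. Of the 48 genes, 43 had a probe and 28 were above background, among 8930 genes above background on these arrays. RNA came from laser-microdissected tissue of CA3, the hippocampal field targeted by mossy fibres from dentate granule cells, of newborn mice (postnatal day 0). The 15 arrays form 3 groups of 5, which were compared: the Dcx KO internal CA3 layer (inner layer), the Dcx KO external CA3 layer (outer layer) and the undivided CA3 layer of wild-type mice (WT). Mutant mice lack doublecortin, a microtubule-associated protein of migrating neurons, and have a CA3 pyramidal layer split in 2. Inner and outer samples with the same number came from the same mutant brain, so the 15 arrays stand for 10 animals. The mutants carry the labels' genotype "Mutant" and the controls "Wild type", the material of each brain was pooled before RNA isolation, and strain and sex are not given in the sources used here.

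Heparan sulfate and chondroitin sulfate are long sugar chains that grow on core proteins such as glypicans, syndecans, agrin and the lecticans. Sulfotransferases in the Golgi place sulfate groups at defined positions along a chain, and these positions govern which growth factors and guidance cues the chain binds. Hyaluronan is made at the cell surface without a core protein, and the lecticans (neurocan, brevican, versican and aggrecan) bind it to form the brain's extracellular matrix.

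A log2 level below is the background-corrected, quantile-normalized log2 signal of a gene's probe, and probes of different genes were not set against each other. A probe was detected on an array when its signal exceeded all but a share of 0.01 of the control entries. Doublecortin transcript checked the labels: no mutant array exceeded a Dcx level of 10.74 and no WT array fell below 11.76. Mean Dcx was 11.96 ± 0.12 in WT against 10.49 ± 0.12 (inner) and 10.61 ± 0.08 (outer; SD, n = 5 each). In a deposited table of scaled values the authors had added a shift to 8 arrays, those of mutant animals 1 to 4, and none to the other 7, which were mutant animal 5 and all WT arrays. The largest shift of an entry was 1.12 on each shifted inner array and 2.29 on each shifted outer array, so the layers were not shifted alike. The sets of 8 and 7 arrays are treated here as array batches, although the labels name none. The layers of an animal share a batch, and a comparison with WT has 1 mutant animal in the WT batch. In all, 6 arrays (inner 1, 2 and 5, WT 1, 2 and 3) held much skeletal muscle transcript, with a mean log2 level of 8 muscle genes between 7.89 and 11.38, while the other 9 had 4.94 to 5.77. All 7 listed pyramidal neuron markers were measured, with Grik4 and Slc17a7 detected on all 15 arrays and Neurod6 on 1 inner, 5 outer and 2 WT arrays. Their summed log2 level was 12.43 to 12.91 on inner, 11.70 to 12.13 on outer and 11.98 to 12.27 on WT arrays. A summed level here is the log2 of the added unlogged signals of a list's measured genes, so it mostly follows the brightest of them. In dissected tissue, fewer cells of a type and less RNA per cell cannot be told apart.

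Among the enzymes of heparan sulfate, those above background were the chain-building Ext1, Ext2, Extl1 and Extl3, the N-sulfating enzyme gene Ndst1 and the O-sulfating enzyme genes Hs2st1, Hs3st1, Hs6st1 and Hs6st3. Chondroitin sulfate enzymes above background were Chsy1, which extends the chain, and the sulfotransferases Chst7, Chst12 and Chst15. Chst1, Chst2 and Chst8, sulfotransferases that act mainly on other sugar chains, were measured as well. Of the hyaluronan synthases Has3 passed, and of the core proteins all 4 lecticans, Gpc1, Gpc2, Gpc3, Sdc2, Sdc3, Sdc4 and Agrn. Of the 28 measured genes, 21 were detected on all 15 arrays. The other 7 (Extl1, Hs6st3, Chst7, Vcan, Acan, Gpc2 and Sdc4) were detected on 5 to 14, and Chst7 passed through the mutant arrays alone. Another 15 genes had probes that stayed below the filter, namely Ndst3, Glce, Hs3st2, Hs6st2, Sulf1, Csgalnact1, Chst3, Chst11, Has1, Has2, Hapln1, Hapln4, Gpc4, Gpc6 and Sdc1. Both hyaluronan link protein genes, Hapln1 and Hapln4, are among them, detected on 1 and 2 of 15 arrays. Ndst2, Hs3st4, Hs3st5, Sulf2 and Ptprz1 were not analysed here.

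Between the layers of the mutant CA3, 5 genes were lower and 1 was higher in the outer layer. Hs3st1 and Chst2, which encode sulfotransferases, Bcan, which encodes brevican, Has3, which encodes a hyaluronan synthase, and Gpc1, which encodes the lipid-anchored heparan sulfate proteoglycan glypican-1, were lower. Gpc2, which encodes glypican-2 (cerebroglycan), a glypican of developing neurons, was higher. These 6 of 28 genes (21.4%) stand against 20.8% of all 8930 genes called in the same comparison (limma adjusted p under 0.05, animal as a block), so the share of called genes was near the background. By direction, 9.48% of all genes were called higher and 11.3% lower. The median log2 difference was −0.09 over the 28 genes and 0.03 over all genes. Arrays of the 2 layers did not overlap for 5 of the 28 genes, against 9.7% of all genes.

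Of these 6 genes, 4 had the largest differences and a promoter in the RefSeq tables of GRCm38.p6. Their 250 bases upstream of the annotated transcript start are shown because 3 of them fell and 1 rose together in every animal. Capitals mark the GC box GGGCGG or its reverse complement CCGCCC, a binding motif of SP-family factors.
Hs3st1, chr5:39644632-39644881 (minus strand): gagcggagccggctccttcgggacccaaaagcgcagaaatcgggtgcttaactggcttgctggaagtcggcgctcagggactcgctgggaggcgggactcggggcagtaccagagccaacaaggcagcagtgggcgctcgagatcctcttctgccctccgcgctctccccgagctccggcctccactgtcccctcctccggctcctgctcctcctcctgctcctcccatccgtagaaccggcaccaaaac
Chst2, chr9:95407271-95407520 (minus strand): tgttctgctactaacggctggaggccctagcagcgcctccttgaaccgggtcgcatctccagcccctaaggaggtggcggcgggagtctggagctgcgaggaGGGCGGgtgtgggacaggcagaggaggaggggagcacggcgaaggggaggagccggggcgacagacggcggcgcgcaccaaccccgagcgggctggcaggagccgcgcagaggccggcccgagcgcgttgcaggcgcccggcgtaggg
Bcan, chr3:88000357-88000606 (minus strand): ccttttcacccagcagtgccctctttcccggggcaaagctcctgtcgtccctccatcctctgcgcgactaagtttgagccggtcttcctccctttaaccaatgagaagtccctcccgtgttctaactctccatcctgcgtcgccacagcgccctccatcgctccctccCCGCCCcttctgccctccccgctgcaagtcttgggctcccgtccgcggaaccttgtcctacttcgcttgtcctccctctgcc
Gpc2, chr5:138279938-138280187 (minus strand): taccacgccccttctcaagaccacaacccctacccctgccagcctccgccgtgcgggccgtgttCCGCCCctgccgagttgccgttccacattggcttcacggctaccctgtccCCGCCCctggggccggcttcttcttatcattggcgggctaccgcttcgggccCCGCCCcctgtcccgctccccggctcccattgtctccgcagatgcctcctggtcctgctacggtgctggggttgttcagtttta
The Gpc2 window held 3 GC boxes, those of Chst2 and Bcan 1 each and that of Hs3st1 0. A GC box on either strand was in 32.7% of 32851 windows of this length over all annotated promoters. Of the 22 measured genes whose windows were searched, 17 had one in at least 1 of their windows. The first share is per window, over genes above background or not, and the second is per gene, so they cannot be compared. CCAAT, or its reverse complement ATTGG, was found 2 times before Gpc2 and 1 time before Bcan, and in 33.8% of all windows. TATAAA, or TTTATA, was in none of the 4 windows and in 12.4% of all. These matches are letters in a window and were not tested as binding sites.

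Hs3st1, whose enzyme adds the rare 3-O-sulfate to heparan sulfate, had log2 levels of 8.69, 8.74, 8.31, 8.05 and 8.72 in inner layers 1 to 5. The matching outer layers were at 7.25, 6.67, 6.84, 6.78 and 7.37, and WT arrays 1 to 5 at 8.13, 7.92, 8.07, 7.94 and 8.11. Every outer array lay below every inner and every WT array. The outer layer differed from the inner by −1.52 ± 0.12 (SE), a 2.87-fold lower level in 5 of 5 animals (limma adjusted p = 0.000486). Per animal the difference ran from −2.07 in animal 2 to −1.27 in animal 4, and it was −1.35 in animal 5, whose arrays carried no shift. The other heparan sulfate O-sulfotransferase genes did not pass this test: Hs2st1 was at 0.24 ± 0.08 (adjusted p = 0.0754), Hs6st1 at −0.10 and Hs6st3 at −0.17.

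Chst2, whose enzyme sulfates N-acetylglucosamine, was at 10.57, 10.67, 10.39, 10.55 and 10.03 in the inner layers. It was at 9.45, 9.82, 9.45, 9.68 and 9.41 in the outer layers and between 9.38 and 9.79 on the WT arrays (median 9.58). Outer and WT levels therefore overlapped, and every inner array lay above both. The outer minus inner difference was −0.88 ± 0.09 (1.84-fold lower in 5 of 5 animals, limma adjusted p = 0.000963), with −1.11, −0.85, −0.94, −0.87 and −0.62 in animals 1 to 5. Chst1 (−0.04), an enzyme of keratan sulfate, and Chst8 (−0.07) did not pass.

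**Figure D1:**
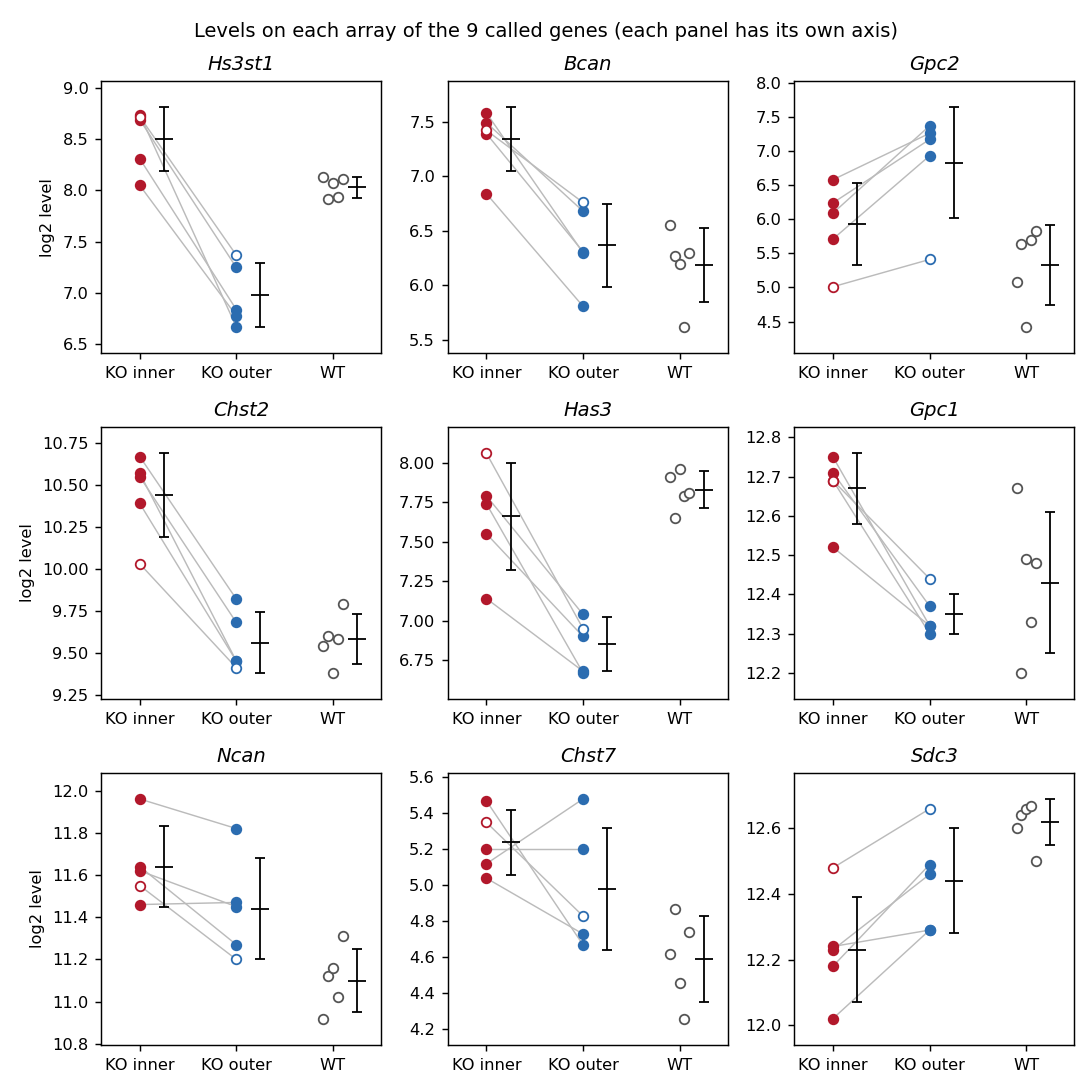
Log2 levels (vertical axes, one scale per panel) on each array of the 9 genes called in at least 1 of the 3 comparisons, with lines joining the layers of an animal, bars for mean ± SD (n = 5), filled points for the 8 arrays with the authors' shift and open points for the 7 without. Hs3st1 and Has3 are lowest in the outer layer (means 6.98 and 6.85), Chst2 and Bcan are highest in the inner layer (means 10.44 and 7.34), and the open Gpc2 points of animal 5 (5.01 and 5.41) lie among the WT points.

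Bcan levels in inner layers 1 to 5 were 7.49, 7.58, 6.84, 7.39 and 7.42. Outer layers of the same animals were at 6.68, 6.30, 5.81, 6.31 and 6.76, and the WT arrays at 6.55, 6.27, 6.20, 5.62 and 6.30. No outer array reached the lowest inner array, while outer and WT overlapped. The layers differed by −0.97 ± 0.10 (1.96-fold lower in 5 of 5 animals, limma adjusted p = 0.00125), and a further Bcan probe differed by −0.82 (adjusted p = 0.0307). Of the other lecticans Ncan, a matrix proteoglycan of young brain, was at −0.20 ± 0.08 (adjusted p = 0.126). Vcan (0.12) and Acan (−0.44) lay close to background, and Acan was detected on 3 inner, 0 outer and 3 WT arrays.

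Markers of several cell types moved with the 5 genes that were lower in the outer layer. Oligodendrocyte precursor markers Olig1 and Pdgfra, 2 measured of 4 listed, were both lower in the outer layer, and their summed log2 level was 10.26 to 11.15 on inner, 9.17 to 9.98 on outer and 8.47 to 8.93 on WT arrays. Of the astrocyte markers 3 of 4 measured (6 listed) were lower, with a summed level of 11.26 to 12.87 on inner, 11.21 to 11.79 on outer and 11.29 to 11.94 on WT arrays, and Aqp4 and Gfap were not above the filter. Radial glia markers were lower in 4 of 6 measured (8 listed), at 11.29 to 11.92 on inner, 11.05 to 11.49 on outer and 11.02 to 11.33 on WT arrays. All 6 endothelial and mural markers were lower, at 10.33 to 10.77 on inner, 9.71 to 10.16 on outer and 9.71 to 10.20 on WT arrays. Reln, the only measured marker of 4 for Cajal-Retzius neurons, was lower as well (−1.17). GABAergic markers were lower in 3 of 4 measured (5 listed), at 11.20 to 11.42 on inner, 10.75 to 10.90 on outer and 10.15 to 10.71 on WT arrays. Microglial markers were lower in 2 of 3 measured (4 listed), Cx3cr1 (−0.82) and C1qb (−0.95), at 6.92 to 7.76, 6.06 to 6.67 and 5.85 to 7.70. Cx3cr1 was detected on 5 inner, 1 outer and 0 WT arrays. Of the pyramidal neuron markers Slc17a7 (−1.22) and Tbr1 (−0.36) were lower, and Neurod6 (0.47) and Slc17a6 (0.35) were higher. The radial glia marker Hes1, the mural marker Pdgfrb and Cx3cr1 passed the filter only through the inner arrays, and Neurod6 only through the outer arrays. Differences of these markers are therefore descriptions. Of 5 meningeal genes Igf2 (−1.48) was called lower, and of 8 muscle genes Acta1 (−2.16). All 5 meningeal genes (−2.75 to −0.44) and all 8 muscle genes (−2.77 to −1.07) had lower outer means. They varied widely between inner arrays, with an SD of 0.75 to 4.03. The part of these cells in the differences of Bcan, Chst2, Hs3st1, Has3 and Gpc1 was not tested.

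Has3 was at 7.79, 7.14, 7.55, 7.74 and 8.06 in the inner layers. Levels of 7.04, 6.68, 6.90, 6.67 and 6.95 were measured in the outer layers, and 7.65 to 7.96 (median 7.81) on the WT arrays. All outer arrays were below all others, whereas inner and WT arrays overlapped. The layers differed by −0.81 ± 0.11 (1.75-fold lower in 5 of 5 animals, limma adjusted p = 0.00361), from −1.11 in animal 5 to −0.46 in animal 2. In the authors' scaled values, which carry unlike shifts in the 2 layers, the difference did not pass (limma adjusted p = 0.156).

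Gpc1 was at 12.75, 12.71, 12.69, 12.52 and 12.69 in the inner and at 12.32, 12.37, 12.30, 12.32 and 12.44 in the outer layers. WT arrays ranged from 12.20 to 12.67 (median 12.48) and overlapped with both. The difference of −0.32 ± 0.07 was small (1.25-fold lower in 5 of 5 animals, limma adjusted p = 0.0216). It did not pass without animal 1, 2 or 3 (adjusted p of 0.0724, 0.0558 and 0.0641).

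Gpc2 went the other way, at 6.58, 5.71, 6.24, 6.09 and 5.01 in the inner and 7.26, 6.93, 7.17, 7.37 and 5.41 in the outer layers. On WT arrays it was at 5.08, 5.64, 4.42, 5.70 and 5.83. Animal 5 was lowest in both layers, so that inner and outer arrays overlap as groups although the outer layer was higher within each animal. The paired difference was 0.90 ± 0.14 (1.87-fold higher in 5 of 5 animals, limma adjusted p = 0.00505), with 0.40 in animal 5 and 0.69 to 1.28 in the others, and without the animal as a block it did not pass (adjusted p = 0.196). The newborn neuron markers Igfbpl1, Rnd2 and Insm1, 3 measured of 4 listed (Eomes was not above the filter), were also higher in the outer layer. Their summed log2 level was 10.77 to 11.24 on inner, 12.27 to 12.68 on outer and 12.11 to 12.45 on WT arrays. Their part in the Gpc2 difference was not tested.

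**Figure D2:**
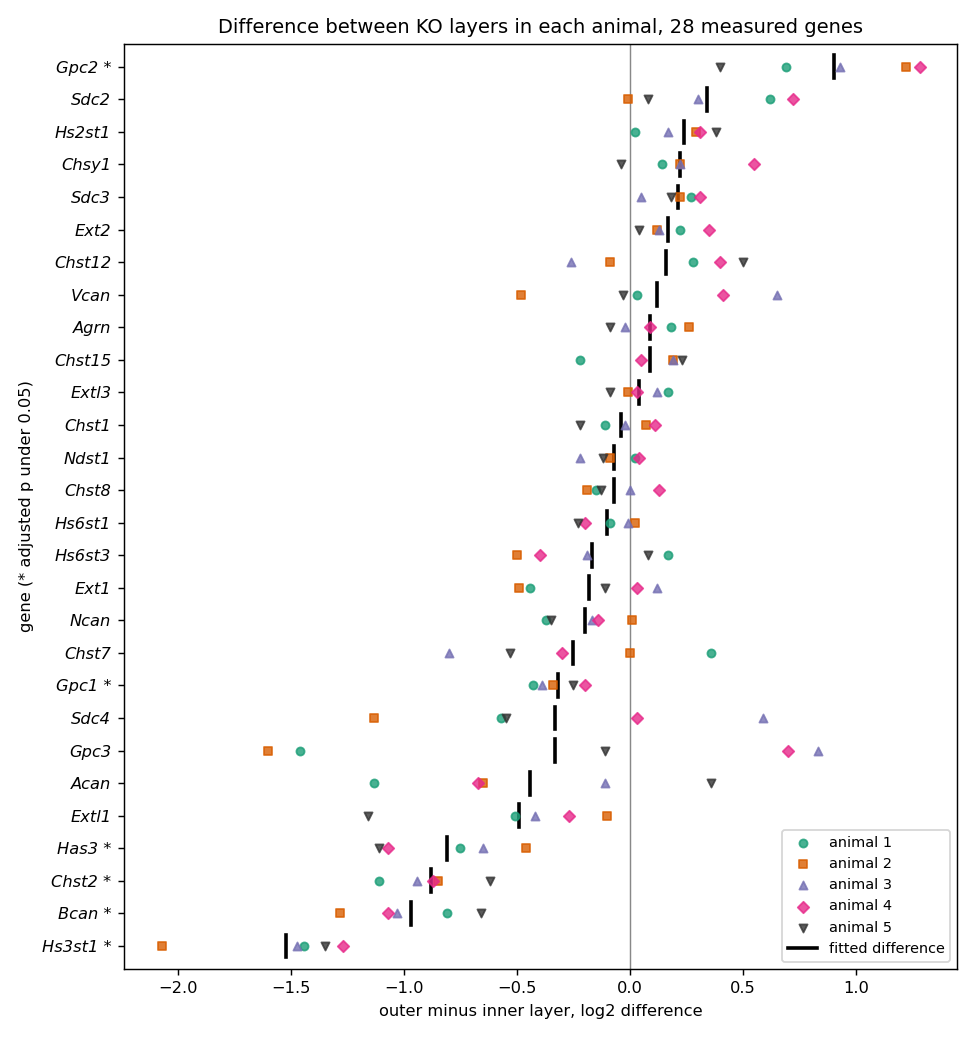
Outer minus inner log2 difference (horizontal axis) of each of the 28 measured genes in each of the 5 mutant animals (symbols) with the fitted difference (black bars) and an asterisk for genes called by limma. Hs3st1, Bcan, Chst2, Has3 and Gpc1 lie below 0 and Gpc2 above 0 in all 5 animals, while Gpc3 runs from −1.60 in animal 2 to 0.83 in animal 3.

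The remaining genes did not pass between the layers. Among the chain-building enzymes, Extl1, detected on 12 of 15 arrays, was nearest to the threshold (−0.49 ± 0.15, 5 of 5 animals, limma adjusted p = 0.0518). Ext1 (−0.18), Ext2 (0.17), Extl3 (0.04) and Ndst1 (−0.07) differed by less, and each was detected on all 15 arrays. Chsy1 was at 0.22 ± 0.10, and the chondroitin sulfotransferase genes Chst12, Chst15 and Chst7 were at 0.16, 0.09 and −0.25. The syndecan genes Sdc2 (0.34 ± 0.12) and Sdc3 (0.21 ± 0.07) were higher in 4 and 5 of 5 animals with adjusted p of 0.0899 and 0.0849, and Sdc4 was at −0.33. Agrn, which encodes agrin, was at 0.09 ± 0.08.

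Group means place these uncalled genes, given here as inner, outer and WT log2 level with n = 5 each. The heparan sulfate polymerase genes Ext1 (9.01, 8.83 and 9.11) and Ext2 (8.68, 8.86 and 8.94) and the related Extl3 (11.19, 11.23 and 11.17) and Extl1 (5.37, 4.88 and 5.30) varied by less than 0.5 between groups. Ndst1 was at 10.04, 9.96 and 9.86. Its 2 probes disagreed, since the dimmer one was 0.44 above WT in the inner layer (limma adjusted p = 0.0331) and the brighter one 0.17 (adjusted p = 0.339). Of the O-sulfotransferases, Hs2st1 was at 7.99, 8.22 and 8.17, Hs6st1 at 8.48, 8.37 and 8.48 and Hs6st3, near background, at 5.03, 4.86 and 4.93. Chsy1 had 8.29, 8.51 and 7.97, and its outer layer was 0.54 ± 0.19 above WT without passing (limma adjusted p = 0.0668). Chst12 was at 6.96, 7.13 and 7.21, Chst15 at 8.39, 8.48 and 8.52, Chst1 at 11.60, 11.56 and 11.46 and Chst8 at 10.24, 10.17 and 10.44. Vcan (4.92, 5.03 and 4.86), Acan (5.04, 4.60 and 5.27) and Sdc4 (4.76, 4.43 and 4.82) were dim in every group. Sdc2 was at 6.23, 6.57 and 6.60 and Agrn at 12.71, 12.80 and 12.91. The 2 Extl3 probes differed in sign against WT, by 0.02 and −0.08 in the inner layer and neither called.

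Gpc3 varied most: inner arrays 1 and 2 were at 8.76 and 8.57 and inner arrays 3 and 4 at 6.09 and 6.27, the outer arrays at 6.92 to 7.30, and the WT arrays at 6.51 to 9.35. Muscle gene levels were 8.60, 9.54 and 7.89 on inner arrays 1, 2 and 5, where Gpc3 was at 8.76, 8.57 and 7.04. They were 11.38, 10.48 and 9.57 on WT arrays 1, 2 and 3, where Gpc3 was at 9.35, 7.22 and 8.02. Bone and meningeal genes varied widely too, with summed log2 levels of 6.75 to 13.43 and 10.03 to 13.84 on inner arrays. Those on outer arrays were 6.68 to 9.84 and 9.59 to 11.05, and on WT arrays 6.96 to 12.58 and 9.38 to 13.94. The part of muscle, bone or meningeal tissue in the Gpc3 levels was not tested.

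With animals 3 and 4 alone, whose arrays were low in muscle transcripts, 6 of the 28 genes were called, 2 higher and 4 lower, and 326 of all genes. Hs3st1, Chst2, Bcan, Has3 and Gpc2 kept their call and direction there, and Gpc1 did not pass (−0.30, adjusted p = 0.246).

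Compared with WT, the inner layer had more Bcan, Chst2, Ncan and Hs3st1 transcript and less Sdc3. Chst7 passed as well, but it was measured only because the mutant arrays took it over the filter, so its difference from WT is a description. Without it 5 of 27 genes (18.5%) were called and with it 6 of 28 (21.4%). These compare with 29.1% of all 8930 genes called in this comparison (13.7% higher and 15.5% lower, limma adjusted p under 0.05), and the median log2 difference was 0.01 over the 28 genes and −0.07 over all genes. Groups did not overlap for 5 of the 27 genes, which are the called genes other than Hs3st1 and, in addition, Ext2 (−0.26, limma adjusted p = 0.0635), against 16.5% of all genes. Inner and outer comparisons use the same WT arrays.

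Bcan was 2.23-fold higher (1.16 ± 0.18, limma adjusted p = 0.00305), and mutant animal 5 alone, which shares the batch of the WT arrays, was higher by 1.24. Chst2 was 1.82-fold higher (0.86 ± 0.13, adjusted p = 0.00259), and 0.45 higher in animal 5. Ncan was at 11.64, 11.46, 11.62, 11.96 and 11.55 in the inner layers and at 10.92, 11.12, 11.16, 11.02 and 11.31 in WT. The lowest inner array was above the highest WT array, with a difference of 0.54 ± 0.11 (1.45-fold, limma adjusted p = 0.00844) and of 0.44 in animal 5. Chst7, which encodes an enzyme of chondroitin 6-O-sulfation, was detected on 5 of 5 inner and 0 of 5 WT arrays. Its inner layers were at 5.12, 5.20, 5.47, 5.04 and 5.35 and its WT arrays at 4.62, 4.87, 4.46, 4.26 and 4.74, which makes the inner layer at least 1.16-fold higher (limma adjusted p = 0.00746, given as a description). The Chst7 bound sets the inner mean against the lowest detected signal of each WT array. With each array scaled to its median instead, the Chst7 difference was 0.11 and did not pass.

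Hs3st1 exceeded WT by 0.47 ± 0.14 in the inner layer (1.38-fold, limma adjusted p = 0.0298), with 1 inner array (8.05) inside the WT range. It did not pass without inner array 1 or 2 or without WT array 2, 3 or 4 (limma adjusted p of 0.0560 to 0.0678). On arrays low in muscle transcripts, where layer and batch coincide, the difference was 0.16. In animal 5 the Hs3st1 difference was 0.69, and that of Chst7 was 0.76. Sdc3, which encodes a syndecan of neurons and their axons, was at 12.02, 12.23, 12.24, 12.18 and 12.48 in the inner layers and 12.50 to 12.67 in WT (median 12.64). All inner arrays were below all WT arrays, and the difference was −0.39 ± 0.10 (1.31-fold lower, limma adjusted p = 0.0151). In the authors' scaled values Sdc3 did not pass (adjusted p = 0.246). Animal 5 had the highest inner level and differed from WT by −0.14.

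With the array batch as a term, 0 of the 28 genes passed in the inner layer (limma adjusted p), and 6 were below an unadjusted p of 0.05. A model of all 15 arrays that held batch and, as a random block, animal called 1 of the 28 genes, Bcan, and 110 of all 8930. Without inner array 5, the mutant inner array that shares the WT batch, 10 of the 28 genes and 3419 of all 8930 were called. Without any 1 of the other arrays it was 5 or 6 of the 28 and 1710 to 2170 of all. Counts of the 28 thus moved along with those of all genes. Low in muscle transcripts were inner 3 and 4 and WT 4 and 5, where layer and batch coincide and cannot be told apart. On these arrays Bcan and Chst2 passed (1.16 and 0.78), and Ncan, Chst7 and Sdc3 did not (limma adjusted p of 0.0601, 0.0605 and 0.121). That fit called 2 of the 28 genes and 1416 of all 8930. The oligodendrocyte precursor, radial glia and astrocyte markers whose summed levels are given above rose in 2 of 2, 4 of 6 and 3 of 4 measured genes in the inner layer, while Vim and Gja1 fell. Of the endothelial and mural markers 5 of 6 rose, and the 3 measured newborn neuron markers fell. GABAergic markers rose in 4 of 4 measured, and Reln (0.83) and 1 of 3 microglial markers, Cx3cr1 (0.87), rose too. The rises of Cx3cr1, Hes1 and Pdgfrb are descriptions, since these markers passed the filter only through the inner arrays. Of the pyramidal neuron markers Slc17a7 (0.66), Tbr1 (0.64) and Neurod2 (0.68) rose and Slc17a6 (−0.50) fell. The part of these cells in the 6 called differences was not tested.

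The outer layer differed from WT in 3 genes: Hs3st1 and Has3 were lower and Gpc2 was higher. This is 10.7% of the 28 genes, against 15.1% of all genes called (8.32% higher and 6.8% lower, limma adjusted p under 0.05), and the medians were −0.07 over both. Hs3st1 was 2.07-fold lower (−1.05 ± 0.14, adjusted p = 0.0149) and Has3 1.97-fold lower (−0.98 ± 0.10, adjusted p = 0.00436), and for these 2 genes all outer arrays were below all WT arrays. They were the only 2 of the 28 genes whose outer and WT arrays did not overlap, against 9.03% of all genes, counted in either direction. In animal 5 the differences of Hs3st1 and Has3 were −0.67 and −0.87. Gpc2 was 1.50 ± 0.38 higher (2.82-fold, adjusted p = 0.0306), but by 0.07 in animal 5, where its level of 5.41 lay inside the WT range of 4.42 to 5.83. The Gpc2 call was lost without any of outer arrays 1 to 4 or WT arrays 1 to 4 (adjusted p of 0.0542 to 0.0851). Hs3st1 did not pass without outer array 3 or 4 (adjusted p of 0.0566 and 0.0520), nor with the numbers as a block (0.0533). Without outer array 5, 8 of the 28 genes and 2797 of all 8930 were called. WT arrays 4 and 5 were low in muscle transcripts, like all outer arrays. Against them alone, the differences were −1.04, −0.96 and 1.07 for Hs3st1, Has3 and Gpc2. In this fit 0 of the 28 genes passed (limma, 6 at an unadjusted p under 0.05), and 1 of all 8930. Among the markers, 2 of 4 GABAergic genes, Olig1 (1.21), Aldoc (0.69), Nes (0.49) and Neurod2 (0.83) were higher in the outer layer than in WT. Slc17a7 (−0.56) and 1 of 8 muscle genes, Acta1 (−2.99), were called lower. The other muscle genes had lower outer means too (−4.25 to −2.17) without passing. The part of these cells was not tested.

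Across the 3 groups, Bcan and Chst2 were highest in the inner layer, while their outer layer differed from WT by 0.19 ± 0.20 and −0.02 ± 0.11, which did not pass (limma adjusted p of 0.543 and 0.934). Has3 was lowest in the outer layer, while its inner layer differed from WT by −0.17 ± 0.15 (adjusted p = 0.422). Hs3st1 was ordered inner, WT, outer, and each neighbouring pair passed its test. The pyramidal neuron marker Slc17a7 had the same order, and its 3 differences, given above, passed as well. Ncan, ordered inner, outer, WT, passed only between inner layer and WT, and its outer layer differed from WT by 0.34 ± 0.13 (adjusted p = 0.0855). With the batch as a term, 0 of the 28 genes passed between outer layer and WT (limma), with 2 below an unadjusted p of 0.05.

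**Figure D3:**
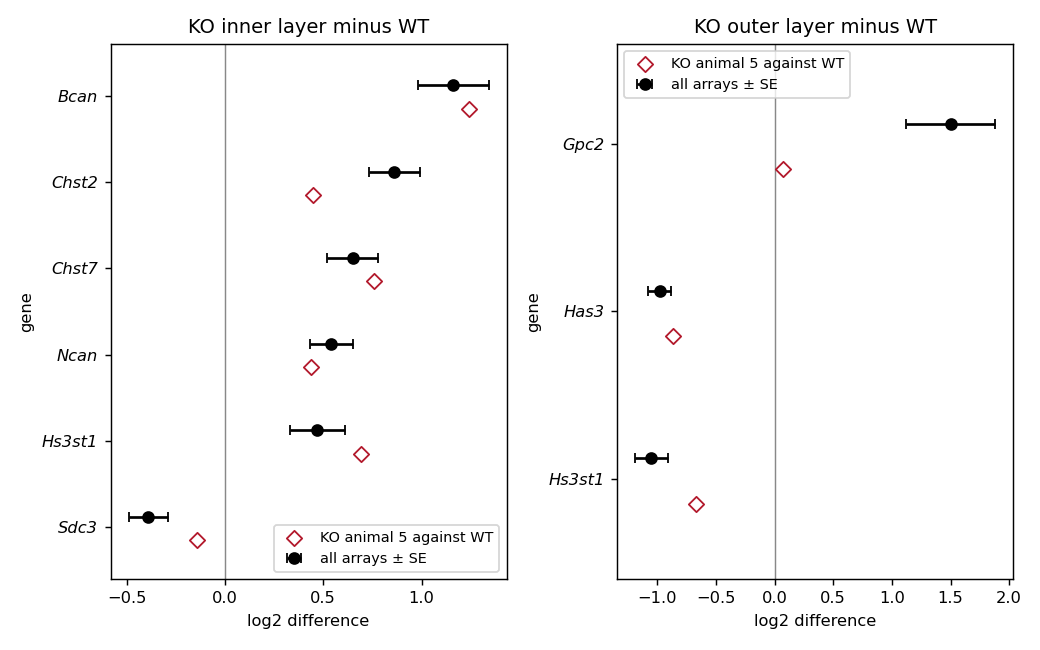
Log2 difference from WT (horizontal axes) of the genes called in the inner layer (left) and in the outer layer (right), over all arrays with its SE (black) and for mutant animal 5 alone against the 5 WT arrays of the same batch (open diamonds). Bcan (1.16 and 1.24) and Has3 (−0.98 and −0.87) lie close together by the 2 measures, while Gpc2 (1.50 and 0.07) does not.

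Of 74 further genes of these pathways, 40 were measured, and 10 were lower and 2 higher in the outer than in the inner layer. That is 30% of them, against 20.8% of all genes, with a median difference of −0.15. The testican genes Spock3 and Spock1, which encode secreted proteoglycans of the brain, were lower, with differences of −1.88 ± 0.10 and −1.04 ± 0.12 in 5 of 5 animals (limma adjusted p of 0.000132 and 0.00157). Inner arrays held Spock3 at 8.12 to 8.98, above outer (6.42 to 7.03) and WT (6.61 to 7.38) arrays, which overlapped, and the inner layer exceeded WT by 1.71 ± 0.20. Tnc, which encodes the lectican-binding glycoprotein tenascin-C, differed by −1.22 ± 0.15. Bgn, which encodes the small proteoglycan biglycan, differed by −1.92 ± 0.53 and Gusb, which encodes a lysosomal enzyme that degrades such chains, by −0.92 ± 0.26. Other probes disagreed for Gusb (−0.20, limma adjusted p = 0.092) and, near background, for Tnc (−0.01), while another Tnc probe was at −1.20. In animals 3 and 4 alone, low in muscle transcripts, 3 of the 40 genes were called, with Spock3 at −1.79, Spock1 at −1.03 and Tnc at −0.96, while Bgn at −0.46 and Gusb at −0.32 did not pass. Of the arrays high in muscle transcripts, inner 1, 2 and 5 and WT 1 and 3 had high Bgn (8.70 to 11.04), and WT 2 had 7.02. Of those low in muscle transcripts, outer 1 had Bgn at 7.92 and the others at 5.92 to 6.91. The part of muscle, bone or meningeal tissue in the Bgn levels was not tested.

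Adamts5, which encodes a protease that cleaves lecticans, was higher in the outer layer by 0.66 ± 0.10 in 5 of 5 animals (limma adjusted p = 0.00595), and lower in the inner layer than in WT, at −0.60 ± 0.09 (adjusted p = 0.00249). Papss1, chosen after its values were seen, encodes a synthase of the sulfate donor used by all sulfotransferases and was higher in the outer layer by 0.23 ± 0.07 (adjusted p = 0.0499) and lower in the inner layer than in WT, at −0.37 ± 0.08 (adjusted p = 0.0109). A further Papss1 probe passed in neither comparison (0.10 and −0.28, limma adjusted p of 0.577 and 0.0549). Against WT, 7 of the 40 genes rose and 2 fell in the inner layer (22.5%, against 29.1% of all genes), led by Spock3 and Spock1 (1.21 ± 0.13), with Gpc5, a glypican gene, at 0.57 and Ids, which encodes a lysosomal sulfatase, at 0.51. The other 2 Ids probes, near background, did not pass (0.28 and −0.36). In the outer layer 1 rose and 2 fell (7.5%, against 15.1%): Cspg5 (0.34), Hyal2 (−0.40) and Cspg4 (−0.76). For 3 genes a dimmer probe was called and the brightest was not. A dimmer Ptprs probe was above WT by 1.01 (inner) and 0.87 (outer; limma adjusted p of 0.00736 and 0.0411), the brightest at −0.20 and −0.18. B3gat3 was at −0.33 in the outer layer against WT (adjusted p = 0.0411; brightest −0.34, 0.119). Slc35b3 was at 0.68 between the layers (adjusted p = 0.0192, brightest 0.08).

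**Figure D4:**
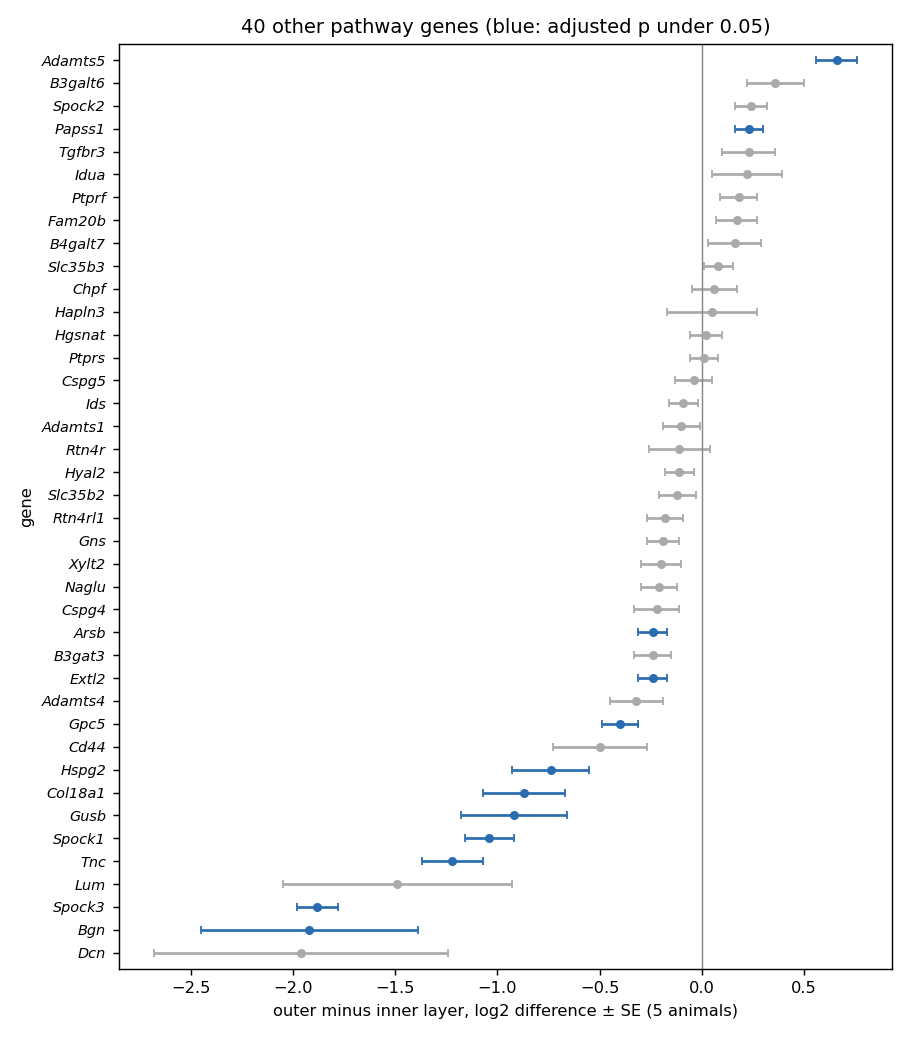
Outer minus inner log2 difference ± SE (horizontal axis, 5 animals) of the 40 other measured genes of the pathways, with genes called by limma in blue. Spock3 (−1.88), Tnc (−1.22) and Spock1 (−1.04) have short error bars, whereas that of Bgn (SE 0.53) is long.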

How the data were processed

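RNA of 15 microdissected samples was amplified into biotinylated RNA and measured on Illumina whole-genome arrays, per the labels' protocols. The log2 signals deposited by the authors came as a table and as a copy with probe identifiers, equal at 7 decimals for 25697 entries. Array medians differ, so no normalization between arrays was assumed, although the file's name states one. A further deposited table held a score, tested to be the authors' log2 signal minus the array median, divided by the array SD, with a shift on 8 arrays. The submitters' processing notes name limma with no role, and the bead summary and build are not given in the sources used here.

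The 1124 entries without a probe identifier were taken as controls, an inference from that lack on which background and detection rest. The neqc function (limma 3.58.1, R 4.3.3, offset 16, robust) corrected background on 1114 of them and applied quantile normalization. The 10 bright ones, with a mean log2 signal above 6.7, were set aside. Detection p-values per array were computed as the share of controls at or above a signal. Probes under 0.01 on at least 5 of 15 arrays were kept (12077, 47%). Symbols came from the platform annotation (23978 probes) or otherwise the entry's description (1610), and 109 probes had none. A gene's value is its kept probe of highest mean. The test design had assumed raw signals with deposited detection p-values, which these tables do not hold.

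Models were fitted with lmFit and eBayes over all kept probes, two-sided, with Benjamini-Hochberg adjustment and calls at an adjusted p under 0.05. The layers were compared over 10 arrays with the animal as a block, since the series text ties both to 1 set of animals. Deviations of an animal's 2 layers from their group means correlated at r = 0.558, 0.255, 0.386, 0.390 and 0.762 across genes. Each layer was compared with WT over 10 arrays. The number of arrays limits the precision. Genes were named, with all arrays, where called (up to 10 per comparison by size), and others by role; the members and lists were chosen with earlier results of these data known. The fits were tested on simulated data. Alternatives changed the normalization, the filter on dim probes, the choice of probe, the block, the batch term and the arrays used.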

Additional observations from a re-analysis of the deposited data

Results flagged for a closer look

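In 9 of 84 groups of 5 arrays (28 genes in 3 groups), 1 array lay far from the other 4 by Dixon's test, which chance gives in about 1 in 20 groups. In WT, array 1 was high for Ext1 (9.38, the others 9.0 to 9.11) and for Acan (6.12, the others 4.95 to 5.24), and array 2 for Hs6st3 (5.06, the others 4.88 to 4.92). WT array 1 also had the highest mean level of muscle genes (11.38). In the inner layer, array 4 was low for Ext2 (8.39, the others 8.71 to 8.82) and Gpc1 (12.52, the others 12.69 to 12.75), and array 3 was low for Bcan (6.84, the others 7.39 to 7.58). In the outer layer, array 5 was low for Gpc2 (5.41, the others 6.93 to 7.37), array 1 was high for Gpc3 (7.30, the others 6.92 to 6.97), and array 3 was high for Sdc4 (4.92, the others 4.18 to 4.39).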

How the results depend on the processing

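Of the 15 calls of single genes in the 3 comparisons, 0 changed direction under any alternative run. The 15 include Chst7 against WT, which passed the filter through the mutant arrays alone and is a description. Between the layers, Hs3st1, Chst2 and Bcan passed under all 13 alternatives, Has3 under 12, Gpc2 under 11 of 12 and Gpc1 under 9. The number of called genes of the 28 was 5 to 9 over all alternatives of this comparison (5 to 7 without 1 animal). Over all genes it was 1854, but 326 in animals 3 and 4, 737 without the block and 1027 to 1344 without 1 animal.

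Against WT the counts changed with the scaling, the arrays used and the batch term, which leaves 1 mutant array in the WT batch. In the inner layer 6 of the 28 genes were called (5 of 27 without Chst7, left out after seeing the data), but 2 on arrays low in muscle transcripts (inner 3 and 4 against WT 4 and 5, where layer and batch coincide), 0 with the batch term, 0 within the unshifted arrays (6 at an unadjusted p under 0.05 in either), 1 with batch term and random block, and 5 to 10 without 1 array. Over all genes the 2600 calls became 1069 with the authors' scaled values, 1416 on arrays low in muscle transcripts, 7 with the batch term, 0 within the unshifted arrays (limma, 970 at an unadjusted p under 0.05), 110 with the random block and 1710 to 3419 without 1 array. In the outer layer the 3 of 28 became 5 with quantile normalization alone, 10 with median scaling, 0 on arrays low in muscle transcripts, 1 with the replicate block, 0 with the batch term, 0 within the unshifted arrays, 0 with the random block (limma, 2 unadjusted in each of the last 3), and 1 to 8 without 1 array. Over all genes, the 1350 became 2166 with median scaling, 418 with the authors' scaled values, 688 with no filter, 1 on arrays low in muscle transcripts, 4 with the replicate block, 1 with the batch term, 0 within the unshifted arrays (633 unadjusted), 1 with the random block, and 3 without outer array 3 to 2797 without outer array 5. Median scaling gave 32.3% and 32.9% of the calls against WT as higher (46.9% and 55% with neqc). The authors' scaled values, with unlike shifts in the 2 layers, gave 59.1% between the layers (45.7%). The within-batch fits set 1 mutant array against 5, assumed to vary like WT, and the cause of the other changes was not tested. The numbers do not pair mutant and WT animals (deviations correlated at −0.375 to 0.554), and the block kept the inner count at 6. Of the 40 further pathway genes, on arrays low in muscle transcripts (added after seeing the data), 3 in place of 12 were called between the layers, 4 in place of 9 in the inner and 0 in place of 3 in the outer layer (2 unadjusted). The 4 were Spock3, Spock1, Tnc (1.15) and Dcn (−0.86). Tnc and Dcn were not among the 9 (limma adjusted p of 0.0797 and 0.957 over all arrays).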
